A study of Bos taurus with 6 samples.

Results

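AP-1 is a family of transcription factors built as dimers, and its genes were read here in granulosa cells of cattle, the follicle cells around the egg that make oestradiol, after exposure to fibroblast growth factor 18 (FGF18). The 10 members were FOS, FOSB, FOSL1, FOSL2, JUN, JUNB, JUND, ATF3, MAFF and MAFG, chosen by symbol. The choice was made with earlier results of these data known. Every probe that the array's annotation gives one of these symbols was taken, which came to 14 of 21790 probes with a symbol. All 10 members were measured, among 15229 genes. FOSB had 3 probes, FOS and FOSL2 had 2 each, and each other member had 1. Where a gene had several probes, the one with the highest mean intensity over the 6 arrays stood for it, and the others are given beside it.

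Granulosa cells came from follicles of 2 to 6 mm of Holstein crossbred cattle, collected at an abattoir. All cells spent 5 days in serum-free culture that held FSH (10 ng/ml) plus insulin (10 ng/ml), so the controls had both hormones too. The treated group then had FGF18 at 10 ng/ml for 2 h, and the control group had no FGF18. The source names end in T2 for treated cells and T0 for controls, and the labels do not say whether controls were taken before or at the end of those 2 h. If T0 stands for the start, treatment and time in culture cannot be told apart. Each of 6 two-colour arrays held RNA of both groups, in 3 replicates of 2 arrays with the dyes exchanged, so every value is a log2 ratio of FGF18 over control. A replicate's ratio is the mean of its 2 arrays.

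AP-1 dimers form through a leucine zipper, and JUN proteins can pair with themselves or with FOS proteins, whereas FOS proteins need a partner. FOS, FOSB, JUN and JUNB are classic immediate early genes, whose transcripts rise quickly and briefly after growth factors act through MAP kinases. In rat granulosa cells, JUND and FOSL2 are known as the AP-1 proteins that persist as the cells luteinise. ATF3 is a stress-induced relative, and the small MAF proteins MAFF and MAFG lack a transactivation domain and act through partners such as NFE2L2 and BACH1.

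In each channel, 45.7% to 73.5% of probes exceeded background, where background means the mean plus 2 SD of 153 negative control spots. The brightest probe of 8 members was above background in both channels of all 6 arrays. JUN missed this in 1 control channel, and MAFF was above background in 3 FGF18 and 5 control channels. Over 18208 probes, ratios on the 2 arrays of replicate 1 correlated at 0.80, those of replicate 2 at 0.86 and those of replicate 3 at 0.46. The value of replicate 3 was close to the 0.46 and 0.45 found when replicates 2 and 3 were set against each other within an orientation. The array of replicate 2 with the control in Cy5 had dim spike-in spots: the Cy5 median was 1100, where the other 5 arrays had 9505 to 12293, and the Cy3 median was 483, where they had 5122 to 15970.

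The comparison of FGF18 with control asks which AP-1 genes differed after 2 h, and no member passed the test. JUN and MAFG had the widest spread between replicates, each more than 2-fold lower with FGF18 in replicate 1 and more than 2-fold higher in replicate 2. FOSL1, FOSB and FOS had the opposite order, higher in replicate 1 and lower in replicate 2. FOSL2 alone among the 10 members had 1 sign in all 3 replicates, which 24.1% of all genes had. In limma with Benjamini-Hochberg adjustment, 0 of 10 members were called, against 0% of all genes, and the smallest adjusted p over all genes was 0.986. At an unadjusted p under 0.05, 1 of 10 members was past the threshold, FOSL2, against 3.49% of all genes. The median ratio of the members was -0.03, and that of all genes was -0.01.

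**Figure D1:**
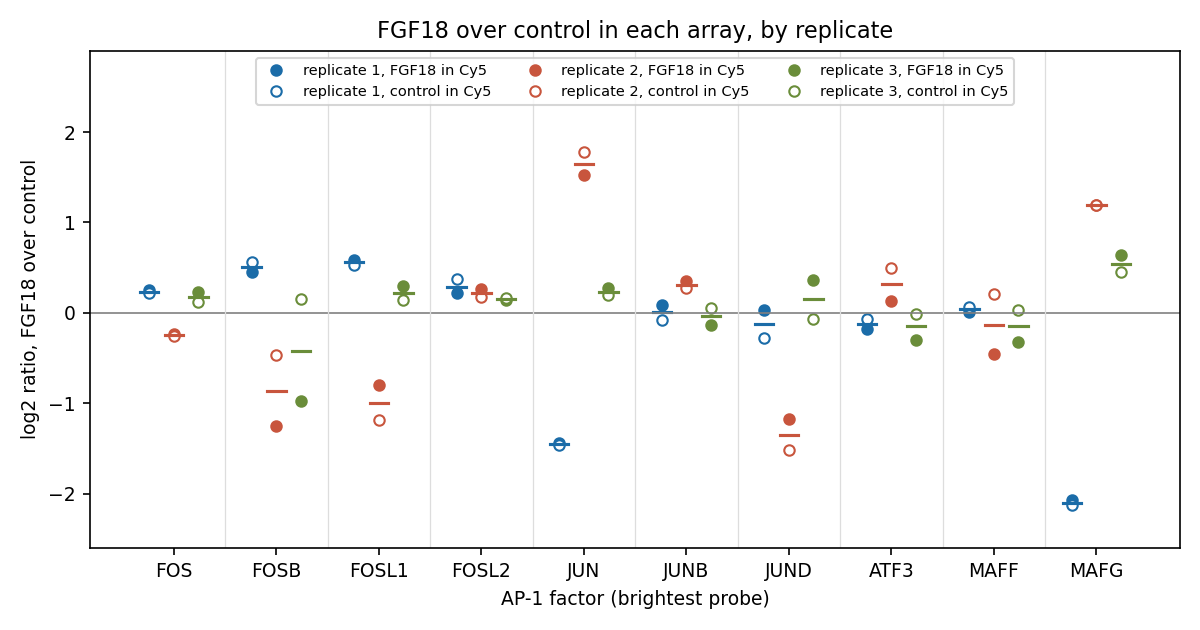
Log2 ratio of FGF18 over control for the brightest probe of each of the 10 members on each of the 6 arrays, with colour for the replicate, fill for the dye orientation and bars for the mean of 2 arrays. JUN and MAFG lie below 0 on both arrays of replicate 1 (JUN -1.44 and -1.46) and above 0 on both arrays of replicate 2 (JUN 1.53 and 1.78), while FOSL2 lies above 0 on all 6.

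Among the JUN proteins, JUN itself had array ratios of -1.44 and -1.46 in replicate 1, 1.53 and 1.78 in replicate 2, and 0.27 and 0.20 in replicate 3. JUN was thus 2.73-fold lower with FGF18 in replicate 1, 3.14-fold higher in replicate 2 and 1.17-fold higher in replicate 3. Its 2 arrays within a replicate differed by at most 0.25, while the replicates spanned 3.10 on the log2 scale (8.59-fold). The mean of the replicates was 0.14 ± 1.55 (SD, n = 3), with a 95% interval from -1.84 to 2.13 and an adjusted p of 0.989 in limma. That interval holds large changes in either direction. The span of JUN was 1.42 without replicate 1 and 1.68 without replicate 2. JUN was a dim spot: in replicate 1 with FGF18 in Cy5 its intensity was 129 with FGF18, over a background limit of 116, and 396 in the control, over a limit of 134. In replicate 2 the control channel read 250 and 262 on the 2 arrays, over limits of 223 and 271, so the second of these was not above background. With readings this close to background, the folds of JUN and its span are approximate: the span was 3.72 with a normexp offset of 16 in place of 50, and 2.79 with the log2 ratios of the authors' deposited table.

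JUND, a JUN protein often linked with slower growth, had array ratios of 0.03 and -0.28 in replicate 1, -1.18 and -1.52 in replicate 2, and 0.36 and -0.07 in replicate 3. Only replicate 2 was clearly apart, at 2.55-fold lower with FGF18. The mean was -0.44 ± 0.80 (SD, n = 3), with an interval from -1.47 to 0.59 and a limma adjusted p of 0.986. JUNB, an early gene that can restrain JUN, had replicate ratios of 0.01, 0.31 and -0.04, with a mean of 0.09 ± 0.19 (SD, n = 3). Its 6 arrays ran from -0.13 to 0.35, with replicate 2 the highest.

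Among the FOS proteins, FOSL1, the FOS relative known as FRA1, had array ratios of 0.58 and 0.53 in replicate 1, -0.80 and -1.19 in replicate 2, and 0.30 and 0.14 in replicate 3. FOSL1 was 1.47-fold higher with FGF18 in replicate 1 and 1.99-fold lower in replicate 2, and its mean was -0.07 ± 0.82 (SD, n = 3). FOSB had 0.45 and 0.56 in replicate 1, -1.25 and -0.47 in replicate 2, and -0.98 and 0.15 in replicate 3. The arrays of replicate 3 had opposite signs and differed by 1.13, so only the first 2 replicates gave FOSB a direction on both arrays. The mean of FOSB was -0.26 ± 0.70 (SD, n = 3), with a limma adjusted p of 0.986.

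FOS, the founding member of its family, had array ratios of 0.25 and 0.22 in replicate 1, -0.23 and -0.26 in replicate 2, and 0.23 and 0.12 in replicate 3. Each pair of arrays differed by at most 0.11, and the mean was 0.05 ± 0.26 (SD, n = 3). The 95% interval of FOS ran from -0.32 to 0.42. FOSL2, the FOS relative known as FRA2, had 0.22 and 0.37, then 0.26 and 0.17, then 0.14 and 0.16. Its ratios lay above 0 on all 6 arrays, with a mean of 0.22 ± 0.07 (SD, n = 3) and an interval from 0.04 to 0.40. In replicate 1 with FGF18 in Cy5, FOSL2 read 137 with FGF18, over a background limit of 116, and 147 in the control, over 134. On the other array of replicate 1 it read 205 with FGF18, over 155, and 98.1 in the control, over 94.3. Ratios of spots this dim are shrunk by the processing. FOSL2 had an unadjusted p of 0.0306 and an adjusted p of 0.986 in limma, so it was not called.

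ATF3, the stress-induced member, was bright on every array, with control intensities from 1961 to 3306. Its replicate ratios were -0.12, 0.32 and -0.15, and its mean was 0.01 ± 0.26 (SD, n = 3), with an interval from -0.36 to 0.39.

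Of the small MAF proteins, MAFG had array ratios of -2.07 and -2.13 in replicate 1, 1.19 and 1.19 in replicate 2, and 0.64 and 0.45 in replicate 3. MAFG was 4.30-fold lower with FGF18 in replicate 1, 2.29-fold higher in replicate 2 and 1.46-fold higher in replicate 3. Its span of 3.30 (9.82-fold) was the widest of the members and ranked 45 of 15229 genes, where JUN, with its dim readings, ranked 77. The mean of MAFG was -0.12 ± 1.75 (SD, n = 3), with an interval from -2.35 to 2.11 and a limma adjusted p of 0.989. MAFF had replicate ratios of 0.04, -0.13 and -0.15 near the background, with a mean of -0.08 ± 0.10 (SD, n = 3).

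Whether the ratios differed between replicates by more than between the arrays of a replicate was tested with limma's moderated F-test, with a term for dye orientation. The F-test called 8 of 10 members, all but FOSL2 and MAFF, against 53.7% of all genes. Among the 8505 genes above background in every channel the share was 79.6%, and 7 of the 8 members among them were called. Its error is the difference between arrays of a replicate, so it compares RNA pairs and says nothing of FGF18 in general. That error rests on the pairing of arrays by title number. The adjusted p in limma was 2.91e-09 for JUN, 1.75e-09 for MAFG, 1.52e-07 for JUND and 3.61e-07 for FOSL1. For FOSB it was 0.000116, for FOS 0.000790, for ATF3 0.00150 and for JUNB 0.0190. Without replicate 2 the limma F-test called 5 members, and FOS (adjusted p 0.800), JUNB (0.838) and ATF3 (0.918) were lost. The loss was array-wide, as 4330 of 15229 genes were then called, against 8175 with all replicates.

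**Figure D2:**
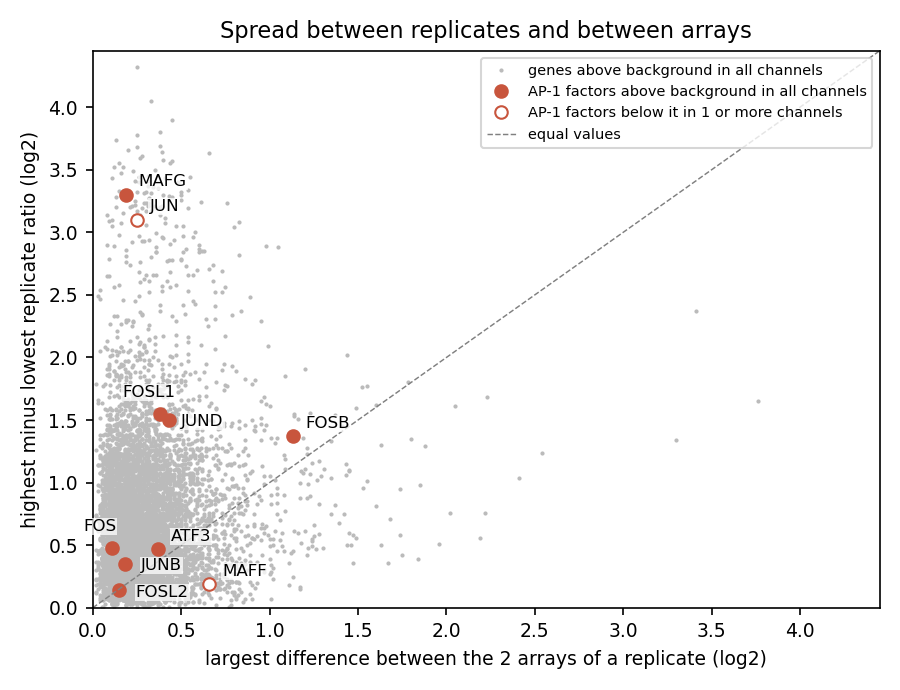
Highest minus lowest replicate ratio against the largest difference between the 2 arrays of a replicate, both in log2 units, for genes above background in all channels (grey) and the 10 members, open where a member missed background in at least 1 channel; the dashed line marks equal values. JUN (span 3.10, gap 0.25) and MAFG (3.30, 0.19) have wide spans and small gaps, and FOSB (1.37, 1.13) has a gap close to its span.

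The median span of the members was 0.92, against 0.32 over all genes and 0.56 over the genes above background in every channel. A span of at least 1 log2 unit was found in 5 members, JUN, MAFG, FOSL1, JUND and FOSB, and in 12.6% of all genes. That share includes dim genes, whose ratios are shrunk, and was not counted over the bright genes alone. The median size of the members' ratios was 0.26, 0.59 and 0.16 in replicates 1, 2 and 3, against 0.10, 0.18 and 0.08 over all genes. Over the genes above background in every channel it was 0.21, 0.34 and 0.11, closer to the members. Replicate 2 thus had the largest ratios and replicate 3 the smallest, in the members as in all genes. As the members were chosen with earlier results of these data known, their counts and medians are descriptions.

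A strict description of opposite sign, at least 2-fold one way on both arrays of a replicate and at least 2-fold the other way on both arrays of another, fitted JUN and MAFG. It fitted 14 genes in all, or 0.0919% of 15229, but 52 with median centring and 24 without the dim spike-in array of replicate 2. JUN and MAFG were among them in both cases. In 13 of the 14 the ratio was low in replicate 1 and high in replicate 2, and TNKS1BP1, a tankyrase-binding protein, ran the other way with 1.89, -1.18 and -0.15. At any size, JUN, MAFG and ATF3 were lower on both arrays of replicate 1 and higher on both of replicate 2, which held for 16% of all genes. FOS, FOSB and FOSL1 had the reverse order, which held for 13.1%. Both shares include dim genes. Over the 10 members, the ratios of replicates 1 and 2 correlated at -0.78, and over the 8505 bright genes at -0.27. For replicates 1 and 3 the values were -0.64 and -0.08, and for replicates 2 and 3 they were 0.40 and 0.42. These correlations are descriptions over genes that share arrays, and genes are not replicates. The members were also chosen with earlier results of these data known.

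The level in each channel was described, without a test, as log2 intensity after average intensity was scaled between arrays. Levels of the members were compared only within a probe. With FGF18, JUN had levels of 7.01, 8.75 and 7.63 in replicates 1, 2 and 3, and in the control it had 8.47, 7.10 and 7.39. MAFG had 9.01, 11.13 and 9.85 with FGF18 and 11.11, 9.94 and 9.30 in the control. From replicate 1 to replicate 2 the FGF18 level of both genes was higher and the control level lower, and over the 3 replicates the groups overlapped. Between replicates 2 and 3, both groups of MAFG were lower in replicate 3. For FOSL1 the control varied more, with 9.28, 11.26 and 10.06, while the FGF18 levels were 9.84, 10.27 and 10.28. JUND had control levels of 8.38, 10.59 and 8.76 against 8.26, 9.24 and 8.90 with FGF18. FOSB, at 8.54, 11.07 and 9.31 in the control and 9.05, 10.21 and 8.89 with FGF18, was likewise highest in the control of replicate 2. In these bulk samples, fewer cells of a type and less RNA per cell cannot be told apart.

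**Figure D3:**
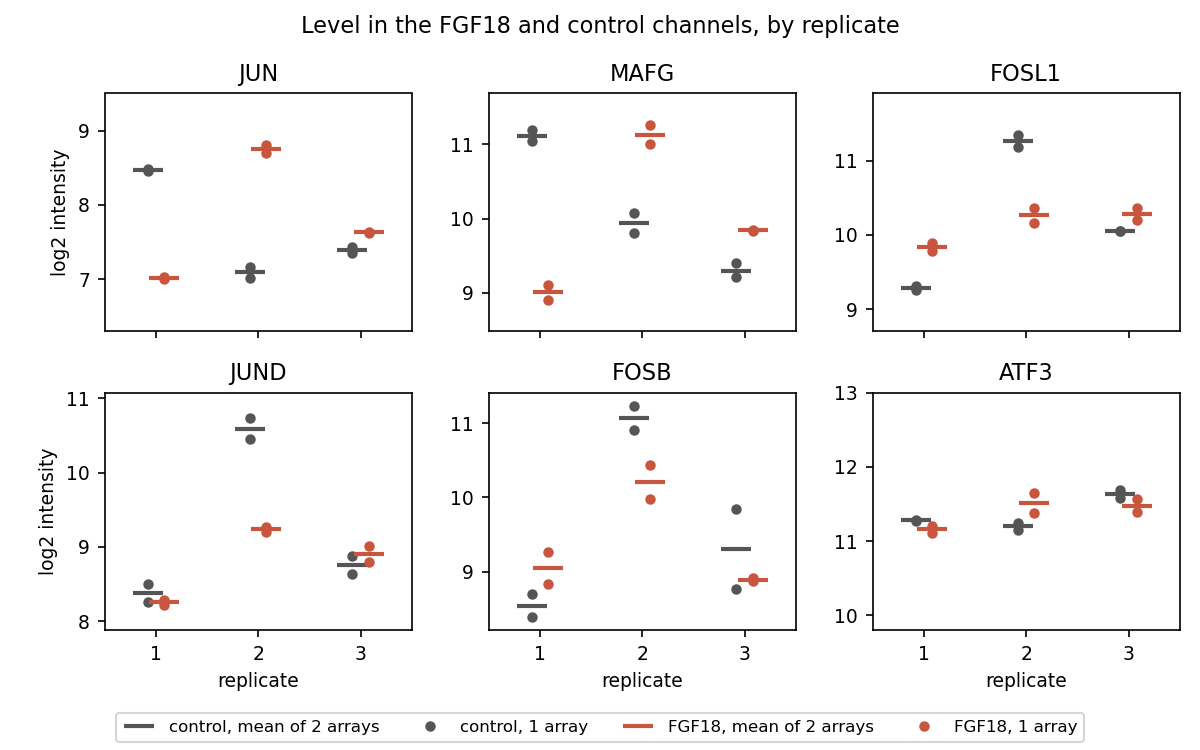
Log2 intensity with FGF18 and in the control by replicate for JUN, MAFG, FOSL1, JUND, FOSB and ATF3, with points for single arrays and bars for the mean of 2 arrays. In JUN and MAFG the control is the higher group in replicate 1 and the FGF18 group in replicate 2, and FOSL1, JUND and FOSB have their highest control level in replicate 2 (11.26, 10.59 and 11.07).

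The other probes of a member did not repeat its brightest probe in each case. The second probe of FOS had replicate ratios of 0.01, -0.53 and -0.01, lowest in replicate 2 as was the brightest. The other FOSB probes had means of -0.08 ± 0.15 and 0.00 ± 0.07 (SD, n = 3), and neither had the wide span of the brightest. They were above background in 4 FGF18 and 6 control channels and in 2 and 1. The second FOSL2 probe had a mean of 0.04 ± 0.01 (SD, n = 3) and was above background in 3 channels of each group. JUN and MAFG had 1 probe each, so their pattern has no second probe beside it.

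Ratios also moved with dye orientation, which lay on slides of its own and cannot be told apart from slide. A dye term, the distance of each orientation from their mean, was called by limma in 8 of 14 member probes, against 41.5% of 43794 probes. It was called in 4 of 10 brightest probes (FOSB, JUND, ATF3 and MAFF) and in all 4 others. The second FOS probe had 0.39, -0.15 and 0.45 with FGF18 in Cy5 and -0.36, -0.90 and -0.46 with the control in Cy5. JUN and MAFG had no dye term past the threshold.

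**Figure D4:**
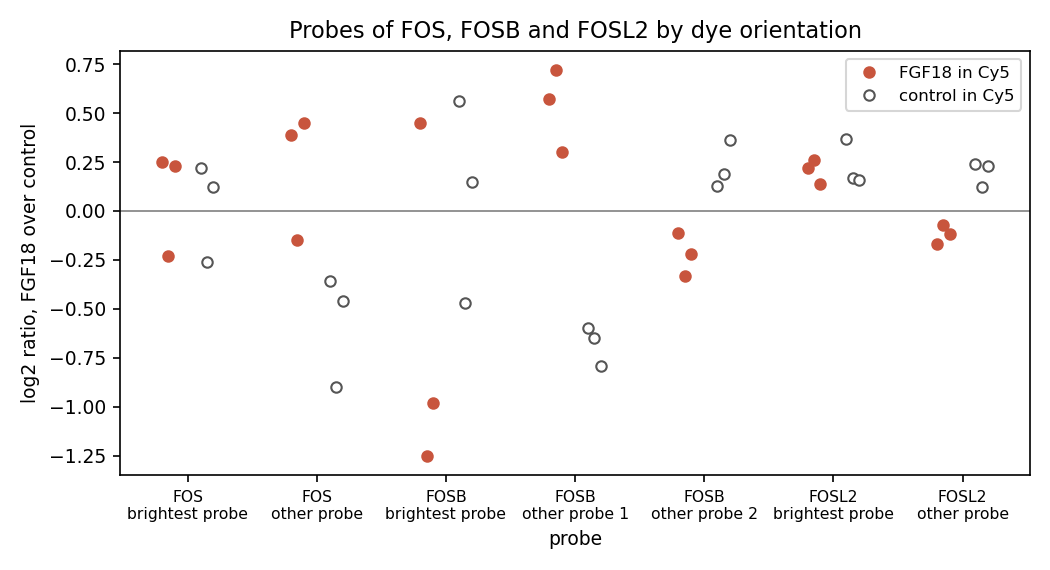
Log2 ratio of FGF18 over control on each array for the 7 probes of FOS, FOSB and FOSL2, by dye orientation, with the replicates side by side. In the 2 dimmer FOSB probes and the dimmer FOSL2 probe the orientations lie on opposite sides of 0, while all 6 points of the brightest FOSL2 probe lie above 0.

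Genes with a pattern like that of JUN were ranked by the root mean square difference of their 6 array ratios among the 8505 bright genes. The nearest was UQCRC1, a subunit of respiratory complex III, at 0.32, with replicate ratios of -1.01, 1.44 and 0.28. Its other probe had 0.72, 0.45 and 0.42 and did not share the pattern. PFDN6, a subunit of the prefoldin chaperone, followed at 0.35 with -1.41, 1.07 and 0.34, and its 2 other probes had -0.81, 0.85 and 0.33 and -0.71, 0.70 and 0.29. USP22, a deubiquitinase, came next at 0.36, then SEC61B, of the protein channel of the endoplasmic reticulum, at 0.37. B4GALT2, a galactosyltransferase, and LOC100296900 were also at 0.37, ADCYAP1, the neuropeptide PACAP, was at 0.39 and ARPC1B, an actin regulator, was at 0.40. MAFG ranked 17 at 0.50, while FOSB, FOSL1 and JUND ranked 8113, 8131 and 8102. The other genes of the strict description were ARPC1A with -2.48, 1.18 and 0.39, COMMD4 with -2.06, 1.57 and 0.24, RPS10 with -2.51, 1.81 and 0.47 and SIRT2 with -1.84, 1.09 and 0.89.

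**Figure D5:**
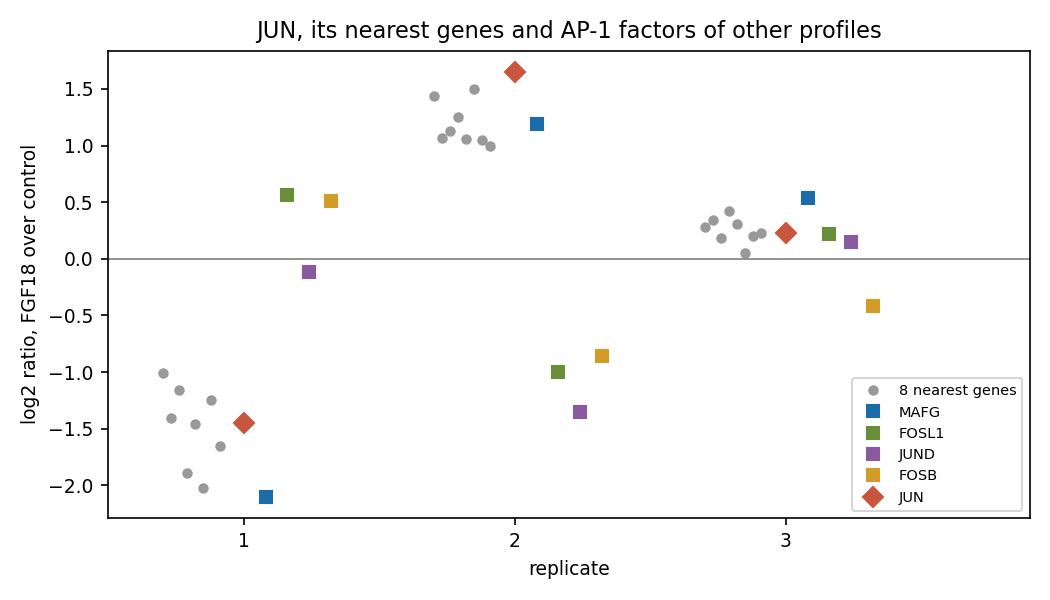
Log2 ratio of FGF18 over control by replicate, as the mean of 2 arrays, for JUN, its 8 nearest genes, MAFG, FOSL1, JUND and FOSB. JUN (-1.45, 1.65 and 0.23), MAFG and the 8 genes are below 0 in replicate 1 and above 0 in replicate 2, and FOSL1, JUND and FOSB are below 0 in replicate 2.

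Genes linked to AP-1 were read in 4 lists with 82 entries, of which 72 were measured, and 0 were called in the FGF18 comparison. Of 20 measured relatives with the same bZIP domain, 1 was higher and 0 lower at an unadjusted p under 0.05, and 8 (40.0%) were called by the F-test. Over all genes, 3.49% were past that p in limma in either direction, and 53.7% were called by the F-test. ATF4, which drives the amino acid stress response, had 0.35, 0.26 and 0.28, a mean of 0.30 ± 0.05 (SD, n = 3), with an adjusted p of 0.986 in limma. MAFK, another small MAF, had 0.11, -0.96 and -0.28, unlike MAFG. NFE2L2, the antioxidant factor that pairs with small MAFs, had -0.40, 0.27 and -0.18. BATF2 had -0.09, -0.57 and -0.01. NFE2L1 had a mean of 0.18 ± 0.21 (SD, n = 3), and its other probes had 0.53 and 0.03. ATF1 had -0.33, 0.63 and -0.25, and its other probes had means of -0.09 and -0.24.

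Of 18 measured kinases and factors that act on AP-1 genes or proteins, 1 was higher and 0 lower at an unadjusted limma p under 0.05. Over all genes, 3.49% were past that p in either direction. The F-test called 13 (72.2%), against 53.7% of all genes and 79.6% of the genes above background in every channel. MAPK8, the kinase JNK1 that phosphorylates JUN, had 0.33, -2.87 and -1.12. Its other probe, above background in 2 FGF18 and 4 control channels, had 0.17, 0.05 and -0.01. MAPK3, the kinase ERK1, had 0.23, 0.73 and 0.27, above background in 4 FGF18 and 3 control channels, and its other probe, above background in none, had -0.03, -0.09 and -0.20. RPS6KA1, a kinase downstream of ERK, had 0.44, -0.93 and 0.21, and RPS6KA3 had -0.04, 0.62 and -0.11. MAP2K7, which activates JNK, had 0.21, -0.65 and -0.02, and MAP2K4, which does so too, had 0.07, 0.40 and 0.14. MEF2A, a factor that binds the JUN promoter, had a mean of 0.17 ± 0.06, and ELK3, a ternary complex factor, had 0.32 ± 0.25 (SD, n = 3). The other MEF2A probes had means of 0.22 and 0.03.

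Of 18 measured AP-1 target genes, 0 were past an unadjusted p of 0.05 in limma, against 3.49% of all genes. The F-test called 10 (55.6%), against 53.7% of all genes and 79.6% of the genes above background in every channel. MT2A, a metallothionein, had 0.61, -0.66 and 0.08, and MMP9, a matrix protease, had -0.83, 0.21 and 0.07. SPP1, the matrix protein osteopontin, had 0.01, 1.06 and 0.04, and its other probe had -0.08, 0.32 and -0.08. CXCL8, a chemokine listed on the array as IL8, had -0.34, 0.59 and -0.10. PLAU, the urokinase protease, had -0.70, 0.02 and -0.10, and PLAUR, its receptor, had -0.08 ± 0.04 (SD, n = 3). MMP3 was not above background in any channel.

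Of 16 other early and stress genes, 0 were past an unadjusted p of 0.05 in limma, against 3.49% of all genes. The F-test called 11 (68.8%), against 53.7% of all genes and 79.6% of the genes above background in every channel. DUSP1, the phosphatase that switches off MAP kinases, had -0.48, 0.01 and -0.44. NR4A1, an early orphan receptor, had a mean of -0.10 ± 0.05 (SD, n = 3), IER3 had -0.13 ± 0.15 and KLF4 had 0.15 ± 0.28. DNAJB1, a heat shock chaperone, had 0.23, -0.91 and 0.12, and its other probes had means of 0.28 and -0.13. BTG2, an antiproliferative early gene, had 0.38, -0.80 and -0.12, IER2 had 0.54, 0.01 and -0.65, and HSPA8 had -0.47, 0.78 and -0.10. The other IER2 probe had -0.02, -0.08 and 0.11, above background in 4 FGF18 and 3 control channels.

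Markers of granulosa cells were read beside these values. Of 10 granulosa markers, 5 were above background in all channels, and FOXL2 and HSD17B1 in none. CYP19A1 was above it in 2 FGF18 and 4 control channels. At an unadjusted p under 0.05 in limma, 2 granulosa markers were higher with FGF18 and 1 lower, against 3.49% of all genes in either direction. After adjustment 0 were called. INHA, the inhibin alpha subunit, had ratios of 0.62, 1.01 and 0.56 by replicate (limma unadjusted p 0.00554). GJA1, a gap junction protein, had 0.91, 0.72 and 0.11 (limma unadjusted p 0.0443), and FSHR, the FSH receptor, had -0.36, -0.49 and -0.09 (0.0461). By brightest probe, the means of INHA (0.73) and GJA1 (0.58) were larger than that of FOSL2. The other GJA1 probe, above background in 6 FGF18 and 6 control channels, had 0.45, -0.06 and 0.18, with a mean of 0.19. Over the 3 replicates, the granulosa markers' summed linear level ran from 18747 to 36645 with FGF18 and from 17830 to 47948 in the control. Sums over different probes follow probe brightness, so these and the sums below give no share of a cell type. Of 6 theca and stroma markers, 4 were above background in all channels, INSL3, COL1A1, COL3A1 and DCN. CYP17A1 was above it in 3 FGF18 and 4 control channels, and LHCGR in 1 and 3. The 6 markers summed to 14204 to 35592 with FGF18 and 11509 to 38318 in the control. The 5 endothelial markers summed to 622 to 699 and 618 to 701, and PECAM1 was not above background in any channel. The 5 leukocyte and blood markers summed to 2411 to 2995 and 2198 to 4307, with CSF1R not above background in any channel. Of the 5 leukocyte and blood markers, 2 had the order of FOSL1 on both arrays of replicates 1 and 2, and 2 had the order of JUN. The first were CD68, a macrophage protein, with 0.80, -0.68 and 0.17, and PTPRC, the leukocyte antigen CD45, with 0.42, -1.46 and -0.91, whose other probe was not above background in any channel. CD14, a monocyte receptor, had small ratios of -0.14, 0.07 and 0.04. HBB, a globin above background in 4 FGF18 and 4 control channels, had -0.09, 0.08 and -0.06. Of the 10 granulosa markers, 2 had the order of JUN and 0 that of FOSL1. The 2 with the order of JUN were INHBA, the inhibin beta A subunit, and FST, the activin-binding follistatin. INHBA had -1.09, 0.69 and 0.03, and FST had -0.58, 0.49 and -0.35. The part of other cell types in the AP-1 values was not tested.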

How the data were processed

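Per the labels' protocols, RNA had 2 rounds of T7 amplification and chemical Cy3 or Cy5 labelling. The deposited scanner files hold spot and background intensity for both dyes, with no normalization, per the file headers. The authors' deposited value table holds log2 ratios whose scale and centring are not given in the sources used here. It followed the ratios computed here at correlations from 0.997 to 1.00, ran as FGF18 over control, and had column medians from -0.00375 to 0.00190.

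Background correction used limma 3.58.1 (R 4.3.3) and its normexp method at offset 50, so ratios of dim spots are shrunk. Each array then had loess at span 0.3, in which the 1418 control spots had weight 0. Arrays with the same title number were averaged as the dye swap of 1 replicate, which the labels do not state outright, and an intercept was fitted to the 3 replicates with lmFit and eBayes. Nothing in the labels says which animals a replicate came from. A second limma fit tested replicate over 6 arrays with a dye term. Benjamini-Hochberg adjustment ran over 15229 genes, with 0.05 as the threshold. An exact sign-change test of 3 replicates allows no p under 0.25 and was not used. The number of arrays limits the precision.

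Symbols came from the platform annotation, and 14114 were current in the RefSeq table of assembly ARS-UCD2.0. The members and lists were chosen with earlier results of these data known. Named genes were all members, from each list the 4 smallest unadjusted p of the FGF18 fit and up to 4 smallest adjusted p of the F-test, the 8 genes nearest to JUN and those of the strict opposite-sign description. Both fits were run on simulated data, but only the F-test had a criterion to pass. That run is therefore no check of the FGF18 comparison. Alternatives changed background, normalization, dim filter, probe rule, dyes and replicates.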

Additional observations from a re-analysis of the deposited data

Results flagged for a closer look

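In 8 of the 14 member probes, the arrays with FGF18 in Cy5 gave other ratios than those with the control in Cy5 (limma, adjusted over all probes), against 41.5% of all probes. The dye term is the distance of each orientation from the mean of both, on the log2 scale, positive where FGF18 in Cy5 gave the higher ratio. It was 0.40 in the second FOS probe and, in the FOSB probes, -0.34 in the brightest, 0.60 and -0.22 in the others. The second FOSL2 probe had -0.16, and the probes of JUND, ATF3 and MAFF had 0.18, -0.13 and -0.18. A term of equal size in both orientations cancels in the mean of a replicate.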

How the results depend on the processing

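No gene and no member was called in the FGF18 comparison under any of 16 alternatives, separate channels with a replicate block included, where 0 genes were called and the members' median ratio was -0.03, as it must be by construction. The members' median ratio was 0.08 with median centring and 0.08 on arrays with the control in Cy5 alone, and -0.02 to 0.02 with each replicate left out. Without a dye term the F-test called 4346 genes and 5 members, losing FOSB (limma adjusted p 0.102), JUNB (0.147) and ATF3 (0.145). With a replicate left out it called 4330 to 6981 genes and 5 to 8 members, the lowest without replicate 2, and the span of JUN was 1.42 to 3.10. That span was 3.72 with an offset of 16, 3.37 with median centring and 2.79 in the authors' deposited table. JUNB was also lost with an offset of 16 (limma adjusted p 0.0514) and FOS with median centring (0.340). Without the array of replicate 2 with dim spike-ins, chosen after seeing the data, MAFF was gained (0.0285), with 9 members and 7335 genes called. JUN and MAFG met the strict opposite-sign description under each alternative run for it, but the number of genes that did was 10 to 52, with 52 from median centring and 24 without the dim spike-in array.

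Of 160 member ratios under the alternatives 144 kept their sign, and of 463 ratios of other named genes 436 did. Signs turned with median centring for FOSL1 (0.04), RPS6KA1 (0.01), PLAUR (0.02) and IER2 (0.07), and with the mean over probes for FOS (-0.06) and ATF1 (-0.11). With FGF18 in Cy5 alone they turned for FOSL1 (0.02), ATF3 (-0.11), ATF1 (-0.03), MT2A (-0.25) and IER2 (0.01). With the control in Cy5 alone they turned for FOSB (0.08), MAFF (0.10), BATF2 (0.15), IL8 (-0.11), NR4A1 (0.02), DNAJB1 (0.26) and HSPA8 (-0.07). Without the dim spike-in array they turned for ATF3 (-0.05), ATF1 (-0.01) and MT2A (-0.09). With each replicate left out, ratios ran from -0.03 to 0.20 for FOS, -0.64 to 0.04 for FOSB, -0.39 to 0.39 for FOSL1, -0.61 to 0.94 for JUN, -0.02 to 0.16 for JUNB, -0.74 to 0.01 for JUND, -0.14 to 0.10 for ATF3 and -0.78 to 0.87 for MAFG. They ran from -0.29 to 0.04 for NFE2L2, -0.29 to 0.34 for MT2A, -0.38 to 0.14 for MMP9, -0.29 to 0.19 for ATF1, -0.36 to 0.33 for RPS6KA1, -0.34 to 0.09 for MAP2K7 and -0.07 to 0.29 for RPS6KA3. For IL8 they ran from -0.22 to 0.24, for DNAJB1 from -0.40 to 0.17, for BTG2 from -0.46 to 0.13, for HSPA8 from -0.29 to 0.34 and for IER2 from -0.32 to 0.28. The causes were not tested.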
